A study of Homo sapiens with 2 samples.

Results

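The replication-dependent histone genes were taken from the deposited table by their symbols, as every row whose name starts with HIST1H, HIST2H, HIST3H or HIST4H. This gave 49 of 21115 genes: 5 of class H1, 13 of H2A, 15 of H2B, 7 of H3 and 9 of H4. The RNA was that of HCT116, a human cell line from a colorectal carcinoma, treated for 8 h with DMSO or with CB-5083 at 1 µM. This compound blocks p97 (VCP), an ATPase that unfolds ubiquitinated proteins for the proteasome. Each treatment was 1 library made with a stranded mRNA kit that selects polyadenylated RNA, so the differences have no replicate check and no p-value is given. The question put to the data is how these genes compare between the inhibitor and DMSO.

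Histones H2A, H2B, H3 and H4 form the core particle around which DNA is wrapped, and H1 binds the linker DNA between particles. Their replication-dependent genes are transcribed mainly in S phase, when new DNA needs packaging. The mRNAs usually end in a conserved stem-loop, bound by the protein SLBP, in place of a poly(A) tail. The U7 snRNP and its cleavage factors help to form this 3′ end. A poly(A)-selected library therefore captures mainly those histone transcripts that run past the stem-loop to a poly(A) signal, or that are otherwise polyadenylated.

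The stem-loop of 16 bases was searched for, on the transcript's own strand, in the GENCODE release 29 transcripts of the members, with 1 mismatch allowed. It was found without a mismatch in 24 of the 49 genes. For the other 25 no match lay in the annotated transcripts, many of which hold the coding sequence only. The 24 genes carried 5 versions, and 13 of them shared 1 version. The sequences below run 5′ to 3′ with 5 bases on each side and the stem-loop in capitals, and were chosen because they compare members with counts to members at 0.

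HIST1H2AC: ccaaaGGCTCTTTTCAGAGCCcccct
HIST2H2BE: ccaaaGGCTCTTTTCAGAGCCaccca
HIST1H3H: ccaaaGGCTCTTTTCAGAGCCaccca
HIST1H2BD: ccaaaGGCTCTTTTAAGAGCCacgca
HIST2H4A: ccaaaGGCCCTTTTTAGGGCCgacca
HIST1H2BF: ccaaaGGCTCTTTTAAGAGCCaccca
HIST1H2BG: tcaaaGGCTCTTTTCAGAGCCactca
HIST1H4H: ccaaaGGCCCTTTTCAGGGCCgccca

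The first 5 of these genes had estimated counts in both libraries, and the last 3, HIST1H2BF, HIST1H2BG and HIST1H4H, were listed at 0 in both. HIST1H2BG at 0 and HIST2H2BE with counts carried the same 16 bases, as did HIST1H2BF at 0 and HIST1H2BD with counts. The version of the stem-loop thus did not separate counted genes from genes at 0 in these examples.

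The 2 members with the most counts, HIST1H2BK and HIST1H2AC, are shown with the 250 bases before their start sites, from RefSeq on GRCh38.p14. Capitals mark 3 promoter elements on either strand: the octamer ATTTGCAT, bound by POU2F1 (OCT1), the CCAAT box and the TATA box TATAAA, where matches may overlap.

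HIST1H2BK, chr6:27146859-27147108, minus strand: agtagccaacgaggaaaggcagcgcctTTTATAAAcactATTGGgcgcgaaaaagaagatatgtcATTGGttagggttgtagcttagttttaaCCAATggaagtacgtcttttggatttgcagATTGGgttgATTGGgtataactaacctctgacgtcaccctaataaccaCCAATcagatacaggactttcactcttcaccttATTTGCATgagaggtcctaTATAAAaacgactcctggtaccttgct
HIST1H2AC, chr6:26123922-26124171, plus strand: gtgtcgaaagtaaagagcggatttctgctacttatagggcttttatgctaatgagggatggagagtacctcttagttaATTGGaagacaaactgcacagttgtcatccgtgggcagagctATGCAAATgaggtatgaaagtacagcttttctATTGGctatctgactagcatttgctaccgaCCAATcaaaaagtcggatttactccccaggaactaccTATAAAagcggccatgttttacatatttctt

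Promoters of 44 members were matched, each with 250 bases before and 50 after the start, and a gene was counted when the window of any of its annotated starts held the match. The octamer lay in 11 of 14 H2B promoters and 9 of 12 H2A promoters, in 1 of 6 H3 promoters (HIST1H3D, where 1 of its 2 starts has the same window as HIST1H2AD), and in none of 5 H1 or 7 H4 promoters. It lay in 2.19% of all 27305 genes' promoters. In 10 of the 11 H2B genes it read forward, with its end 38 to 115 bases before the start (median 40.5). In 8 of the 9 H2A genes it read in reverse, ending 110 to 200 bases before the start. H2A and H2B genes often stand head to head, so a pair's windows overlap and share the element. The CCAAT box lay in all 37 promoters of classes H1, H2A, H2B and H3 and in none of the 7 H4 promoters, against 39.72% of all genes. The TATA box lay in 29 of 44 members' promoters (65.91%), against 13.99%. A match is a description of the letters and no evidence of a bound factor.

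The libraries held 29273621 (DMSO) and 31997590 (CB-5083) estimated counts. Values are CPM, counts scaled to library size with TMM factors, and are not corrected for gene length. Here 1 count was worth 0.0303 CPM in the DMSO library and 0.0352 CPM in the other. Log2 ratios are of (CB-5083 + 1) over (DMSO + 1) in CPM, and folds are without the added 1 and carry a 95% exact (Clopper-Pearson) interval for counting error only. With library totals in place of TMM, the median log2 ratio over all genes shifted by -0.31. A count of 0 allows up to 3 counts, 0.091 CPM in the DMSO and 0.106 CPM in the CB-5083 library. A listed 0 can also be a failed estimate for genes with near-identical copies, so such genes are described only as listed at 0. Of 9 colon epithelial markers, EPCAM, KRT8 and KRT18 stood at 278 to 501 CPM, and CDH1 was called higher (66.7 and 243 CPM). The other 5 were low: CDX2 at 3.76 and 2.92 CPM, KRT20 at 1.37 and 1.02 CPM, LGALS4 with 1.65 and 0.05 counts, VIL1 with 1 and 0 counts, and CDX1 listed at 0 in both. Of 6 markers of other cells, PTPRC, CD3E and COL1A2 were listed at 0, and the 6 summed to 2.64 and 3.60 CPM, nearly all of it COL1A1. In bulk RNA, fewer expressing cells and less RNA per cell cannot be told apart.

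Few histone transcripts were counted in either library. All 49 members together held 424.93 (DMSO) and 193.49 (CB-5083) estimated counts, which is 12.9 CPM (11.7 to 14.2) and 6.81 CPM (5.88 to 7.84). Their sum was 1.89-fold lower with CB-5083 (1.59 to 2.26). Of the 49 genes, 30 were listed at 0 in both libraries (61.2%), against 14.7% of all genes. Another 11 had at most 3 counts in each library, and 8 had more. Only 2 members reached 1 CPM in a library (4.08%, against 58.4% of all genes), and only HIST1H2BK reached 5 CPM.

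A gene was called when it differed 2-fold and reached 5 CPM in 1 library. By this rule HIST1H2BK was lower and no member was higher. Over the 9543 genes tested, 4.91% were lower and 7.22% higher. With a single member tested, its call says nothing about the family. At 1 CPM, where 5.29% of 12336 genes were lower and 6.09% higher, HIST1H2AC was tested too and was not called. The median log2 ratio of these 2 members was -0.84, beside 0.035 over the 11964 genes with a mean of at least 1 CPM.

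**Figure D1:**
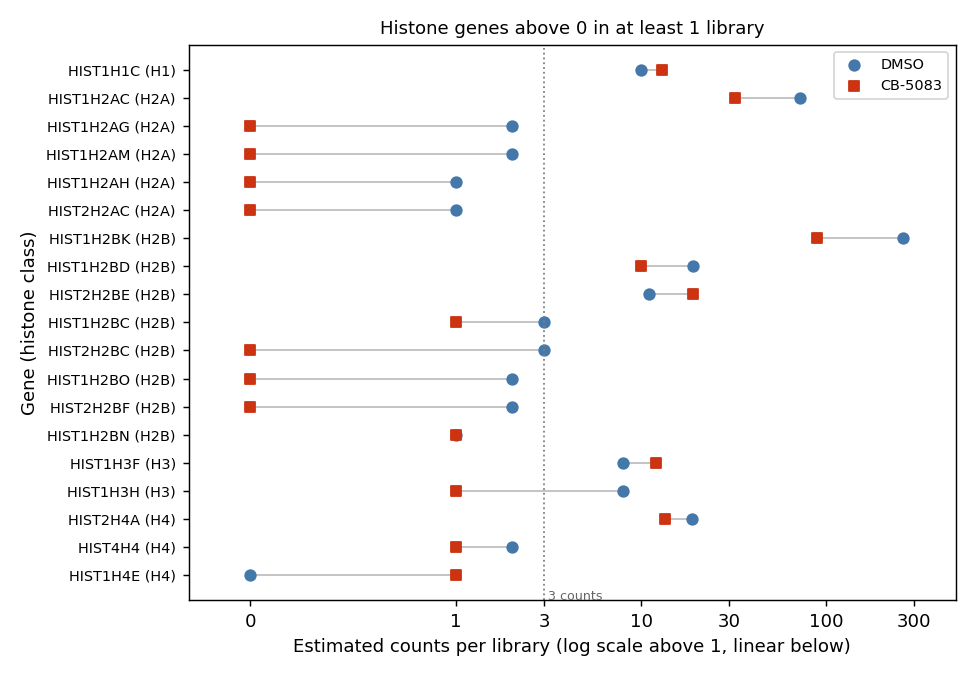
Estimated counts of the 19 histone genes above 0 in at least 1 library, on an axis that is linear up to 1 and logarithmic above. Circles are the DMSO library, squares the CB-5083 library, and the dotted line marks 3 counts. HIST1H2BK goes from 259 to 89 counts and HIST1H2AC from 72 to 32, while 11 genes have 3 counts or fewer in each library.

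The H2B genes, whose product pairs with H2A in the core particle, held 70.6% of the members' counts with DMSO and 62.0% with CB-5083. Summed over 15 genes they stood at 9.10 CPM (8.10 to 10.2) and 4.22 CPM (3.50 to 5.05), in the order DMSO and CB-5083. The sum was 2.16-fold lower (1.74 to 2.69), and this rested on 1 gene. HIST1H2BK, at chr6:27106072-27114637 in hg19, had 259 counts with DMSO and 89 with CB-5083.

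Scaled, HIST1H2BK went from 7.86 to 3.13 CPM, 2.51-fold lower (1.97 to 3.23). Its log2 ratio was -1.10, and library totals made it -1.38. The authors' deposited table gives a log2 ratio of -1.42 for it. Its annotated coding sequence shares 74.1% of its 50-base words with transcripts of other genes, most of them with H2BFS, a near-identical H2B gene. Reads of the pair could not be told apart over those words, so the value of HIST1H2BK is uncertain in that respect, although its estimates were whole counts in both libraries. The longer transcript counted for HIST1H2BK, which spans 8506 bases, was not checked for shared words. H2BFS was not analysed here.

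Without HIST1H2BK, the other 14 H2B genes stood at 1.24 against 1.09 CPM, 1.14-fold lower with an interval from 0.698 to 1.88 that spans no difference. HIST1H2BD had 19 counts with DMSO and 10 with CB-5083 (0.577 and 0.352 CPM). HIST2H2BE went the other way, with 11 and 19 counts (0.334 and 0.668 CPM, 2.0-fold higher, 0.906 to 4.66). The intervals of both folds span 1. HIST1H2BC (3 and 1 counts) and HIST1H2BN (1 and 1) had few counts. HIST2H2BC, annotated as a pseudogene (3 counts), HIST1H2BO (2) and HIST2H2BF (2) had counts with DMSO only. The remaining 7 H2B genes were listed at 0 in both libraries, among them HIST1H2BJ and HIST3H2BB.

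Class H2A showed the same dependence on 1 gene. Its 13 genes summed to 2.37 CPM (1.87 to 2.95) and 1.13 CPM (0.770 to 1.59), 2.10-fold lower (1.38 to 3.28). HIST1H2AC, at chr6:26124373-26139332 in hg19, had 72 of the 78 counts with DMSO and all 32 with CB-5083. It stood at 2.18 against 1.13 CPM, 1.94-fold lower (1.26 to 3.04). Its log2 ratio of -0.58 was short of the 2-fold threshold, and it was -1.05 in the authors' deposited table, which adds no pseudocount. HIST1H2AG and HIST1H2AM (2 counts each) and HIST1H2AH and HIST2H2AC (1 each) had counts with DMSO and were listed at 0 with CB-5083. These 6 counts are too few to read a difference from. The other 8 H2A genes were listed at 0 in both, including HIST2H2AA3, all of whose words occur in its copy HIST2H2AA4.

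Classes H3, H4 and H1 gave intervals that span 1. The 7 H3 genes summed to 16 counts with DMSO and 13 with CB-5083, 0.485 against 0.457 CPM (0.942-fold, 0.417 to 2.09). This sum held 2 genes that differed in direction. HIST1H3F had 8 and 12 counts, in a row that joins transcripts at 3 places of the cluster. The stretch from the lowest start to the highest end of this row overlaps 7 other histone rows. Its lowest transcript starts at 26197068, inside HIST1H3D (26197012 to 26199464), which was listed at 0. Overlap of its other transcripts, and which of its transcripts the counts came from, was not examined. HIST1H3H had 8 counts with DMSO and 1 with CB-5083, 0.145-fold (0.00327 to 1.08). The other 5 H3 genes were listed at 0.

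The 9 H4 genes summed to 20.93 and 15.49 counts, 0.635 against 0.545 CPM (0.858-fold, 0.415 to 1.74). HIST2H4A held most of them, with 18.92 and 13.49. It was the only member above 0 whose estimates were not whole within 0.02, and 97.54% of its words occur in other genes, chiefly its copy HIST2H4B. HIST4H4 had 2.01 and 1 counts, and HIST1H4E had none and 1, the only member counted with CB-5083 alone. The other 6 H4 genes were listed at 0. Of the 5 H1 genes, HIST1H1C, which encodes the linker histone H1.2, had 10 counts with DMSO and 13 with CB-5083 (0.303 and 0.457 CPM, 1.51-fold, 0.611 to 3.84). The other 4 were listed at 0.

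**Figure D2:**
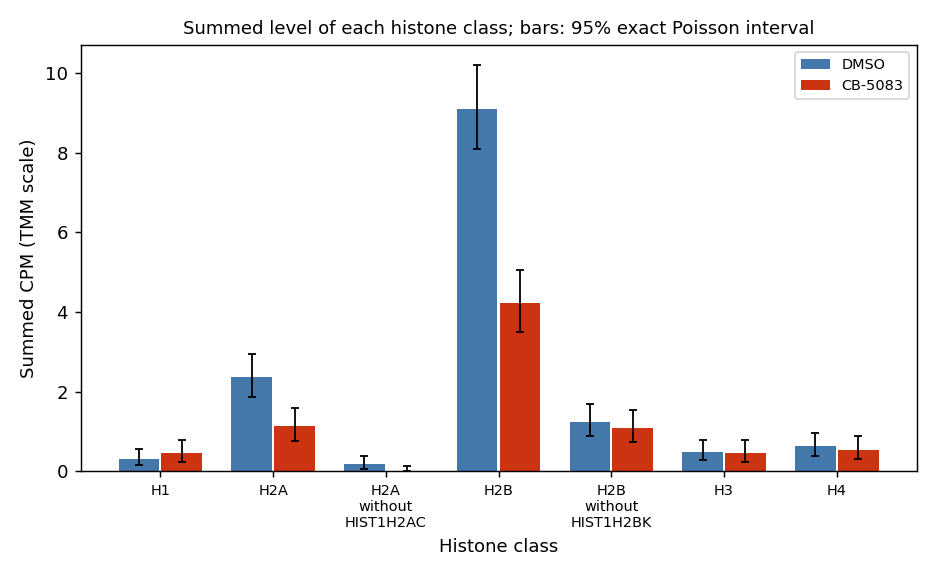
Summed CPM of each histone class in the DMSO library (blue) and the CB-5083 library (red), on the TMM scale, with 95% exact Poisson intervals for counting error. H2B goes from 9.10 to 4.22 CPM and, without HIST1H2BK, from 1.24 to 1.09 CPM. H2A goes from 2.37 to 1.13 CPM, and H1, H3 and H4 have overlapping intervals.

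Another 7 of the 49 members had counts with DMSO only and 1 with CB-5083 only, beside 1276 and 695 of all 21115 genes. Across all members, 11 had counts in both libraries, 7 with a fold below 1 and 4 above it. The interval excluded 1 for 2 of them, HIST1H2BK and HIST1H2AC. Those 2 genes held 77.9% of the members' counts with DMSO and 62.5% with CB-5083. Without HIST1H2BK the sum of the other 48 genes was 1.37-fold lower (1.07 to 1.77). Without HIST1H2AC as well, the other 47 stood at 2.85 against 2.55 CPM, 1.12-fold lower (0.814 to 1.54). By genomic cluster, the 38 HIST1 genes on chromosome 6, which include both, were 2.09-fold lower (1.73 to 2.52). The 8 HIST2 genes on chromosome 1 stood at 1.09 against 1.14 CPM (1.05-fold, 0.632 to 1.73). The HIST3 genes HIST3H2A and HIST3H2BB were at 0, and the single HIST4 gene on chromosome 12 was HIST4H4.

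Most of the members' counts lay in genes with a long annotation. In the files' own annotation, 13 members have a transcript spanning over 1000 bases of the genome, longer than a coding sequence with its stem-loop. These 13 held 403.93 of the 424.93 counts with DMSO (95.1%) and 179.49 of 193.49 with CB-5083 (92.8%), and HIST1H2BK alone made up 64.1% and 49.6% of these sums. Of them 11 were above 0, and 2, HIST1H3D and HIST1H4H, were listed at 0. Of the 36 members with shorter spans, 8 were above 0 and 28 (77.8%) were listed at 0, against 40.9% of all 499 genes with spans that short and 14.1% of the longer ones. Of the 8 members with 8 or more counts in a library, 7 had a long span, and HIST1H1C, at 732 bases, was the exception. The split at 1000 bases was chosen after the values were seen. It fell in a gap, since the longest of the short spans was 790 bases (HIST1H1B) and the shortest of the long ones 1963 bases (HIST2H4A).

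**Figure D3:**
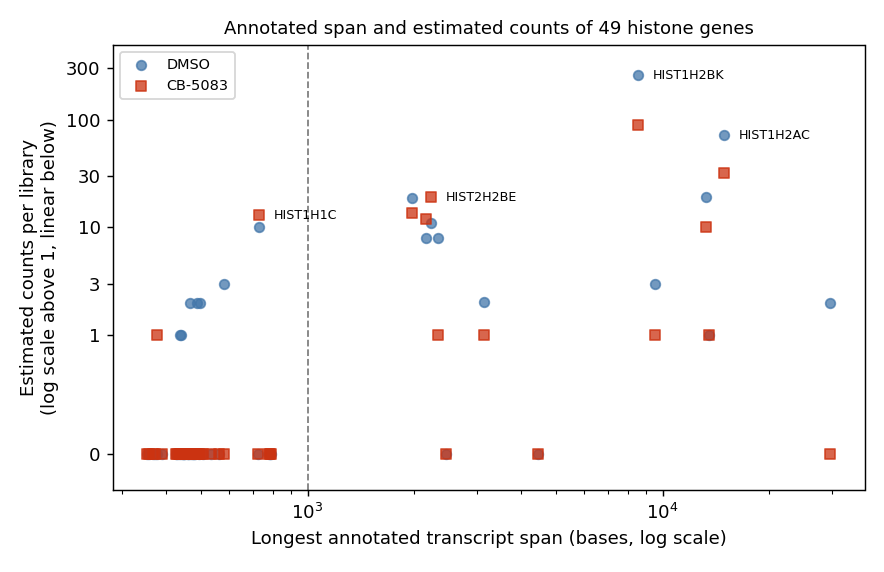
Estimated counts in each library against the longest span of a transcript annotated for the gene, both on logarithmic axes (linear below 1 count), for the 49 histone genes. The dashed line marks 1000 bases. Members to its right hold 95.1% of the DMSO counts, and HIST1H1C is the only member to its left above 3 counts.

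Annotated 3′ ends gave a partly different picture. In GENCODE, 20 members have a transcript that runs more than 100 bases past the stem-loop, and 14 of these end with a poly(A) signal, AATAAA or ATTAAA, in their last 50 bases. HIST1H2AC runs 1128 bases past it and HIST2H2BE 1729 bases. The sum of the 20 genes was 1.53-fold lower with CB-5083 (1.13 to 2.08), with 58.6% of its DMSO counts from HIST1H2AC. The 4 genes that end nearer to the stem-loop summed to a level 1.64-fold lower (0.725 to 3.95). For the 25 with no match the sum was 2.14-fold lower (1.72 to 2.69), with 91.5% of its DMSO counts from HIST1H2BK. Among these 20 genes, the 9 that also have a long span in the files held 117.93 counts with DMSO and 68.49 with CB-5083, and 8 were above 0. The 11 whose span in the files is short held 5 counts and 1, and 3 were above 0. Absence of such transcripts and an annotation without room for their reads cannot be told apart here. Several HIST2 rows also overlap the stretch from the lowest start to the highest end of the SRGAP2 row in the files. Whether any single SRGAP2 transcript overlaps them was not examined, and the use of strand in counting was not given. HIST1H2BK falls among the 25 genes without a stem-loop in GENCODE, where its single transcript of 381 bases is coding sequence, whereas the files give it a transcript spanning 8506 bases.

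Zeros occurred among members with and without sequence shared with other genes. The words compared were those of GENCODE transcripts, which can differ from the annotation used for counting. Of the 36 members with under 10% of their words in another gene, 23 were listed at 0 in both libraries, as were 6 of the 9 with at least 50% shared. Among the 19 members that share no word with another annotated gene, 15 were at 0. The counted members' estimates were whole within 0.02 in both libraries for 18 of 19.

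The replication-independent histones, whose mRNAs usually carry poly(A) tails, showed what the same libraries held of that kind. Their list matched 12 of 16 symbols. The 12 genes summed to 3008 and 2642 CPM, beside 12.9 and 6.81 CPM for the 49 replication-dependent genes, as shares of reads and not as levels per length. None of the 9 genes with 5 CPM was called, and the median over 11 measured genes was -0.18. Over all 9543 genes tested, 4.91% were lower and 7.22% higher, the shares to read beside this list and those that follow. H3F3B, which encodes histone H3.3, held the most reads of the list, at 1355 against 1221 CPM. H2AFZ, the variant H2A.Z found at promoters, was at 894 against 792 CPM, and CENPA, the H3 variant of centromeres, at 30.2 against 34.8 CPM.

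H1F0, a linker histone linked to differentiation and arrest, had the lowest log2 ratio of the list after adding 1 CPM, at 265 against 144 CPM (1.84-fold lower, 1.78 to 1.91). Without the added 1, H2AFJ, an H2A variant gene below 5 CPM, had the lower fold, with 50 and 21 counts (1.52 against 0.739 CPM, 2.05-fold lower, 1.21 to 3.60). H1F0 stayed short of the threshold, although its log2 ratio of -0.88 was -1.22 with library totals. H2AFX, the variant phosphorylated at DNA breaks, stood at 25.5 against 16.8 CPM (1.52-fold lower, 1.36 to 1.71). H2AFY2, a macroH2A gene, was at 21.2 against 12.6 CPM (1.68-fold lower, 1.48 to 1.92).

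Of 34 matched genes that make, process or degrade histone mRNA, 32 reached 5 CPM and none was called, with a median of 0.062 that turned to -0.26 with library totals. SLBP, the stem-loop binding protein, was at 238 against 199 CPM (0.836-fold, 0.808 to 0.865), the most reads of the list with DMSO. ERI1, an exonuclease that trims the histone stem-loop, had the most with CB-5083, at 155 against 216 CPM. NPAT, the coactivator of histone loci that cyclin E and CDK2 act on, was at 60.3 against 73.2 CPM (1.21-fold, 1.14 to 1.29). CASP8AP2, which encodes the processing factor FLASH, was at 58.8 against 59.6 CPM. LSM10 and LSM11, U7 snRNP proteins, stood at 5.77 against 9.46 CPM and 2.93 against 2.53 CPM. POU2F1 was at 52.6 against 47.9 CPM. DDX19B, a helicase of mRNA export, had the highest ratio, at 18.6 against 35.6 CPM (1.92-fold, 1.74 to 2.13), while COBRA1, a NELF complex subunit, lay at the other end with 10.8 against 6.26 CPM (1.73-fold lower, 1.44 to 2.08).

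Of 24 histone chaperone genes, all with 5 CPM, ASF1B was called lower and none higher, with a median of -0.070. ASF1B, the H3-H4 chaperone of proliferating cells, stood at 36.8 against 15.6 CPM (2.37-fold lower, 2.12 to 2.64). Its paralogue ASF1A was at 51.8 against 66.8 CPM (1.29-fold, 1.21 to 1.38). CHAF1A, the large subunit of the replication-coupled assembly factor CAF-1, was at 31.6 against 20.7 CPM, NASP, a chaperone of H1 and H3-H4, at 306 against 236 CPM, and NPM1, with the most reads, at 3799 against 5213 CPM. TONSL, a reader of new histone H4, was at 5.39 against 2.40 CPM (2.24-fold lower, 1.69 to 3.01), a log2 ratio of -0.91 after adding 1.

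The S phase list, taken because these histone genes are transcribed in S phase, had 1 of 25 genes lower and none higher. Of all genes tested, 4.91% were lower and 7.22% higher. The gene called was FEN1, at 131 against 59.1 CPM (2.22-fold lower, 2.10 to 2.35). The list's median was -0.25, and -0.59 with library totals. PCNA, the sliding clamp of replication, stood at 516 against 285 CPM (1.81-fold lower, 1.76 to 1.86). E2F2, a transcription factor of S phase genes, was just short of the call (log2 ratio -0.997), from 17.7 to 8.37 CPM. CCNE1 and CCNE2, which encode cyclin E, were at 39.6 against 33.7 CPM and 65.1 against 46.6 CPM, and their partner CDK2 at 120 against 133 CPM. CDC45, a part of the replicative helicase, had the highest ratio, at 27.2 against 40.0 CPM, and RRM2, a ribonucleotide reductase subunit, had the most reads, at 770 against 940 CPM. The part of these S phase values in the lower values of HIST1H2BK and HIST1H2AC was not tested.

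**Figure D4:**
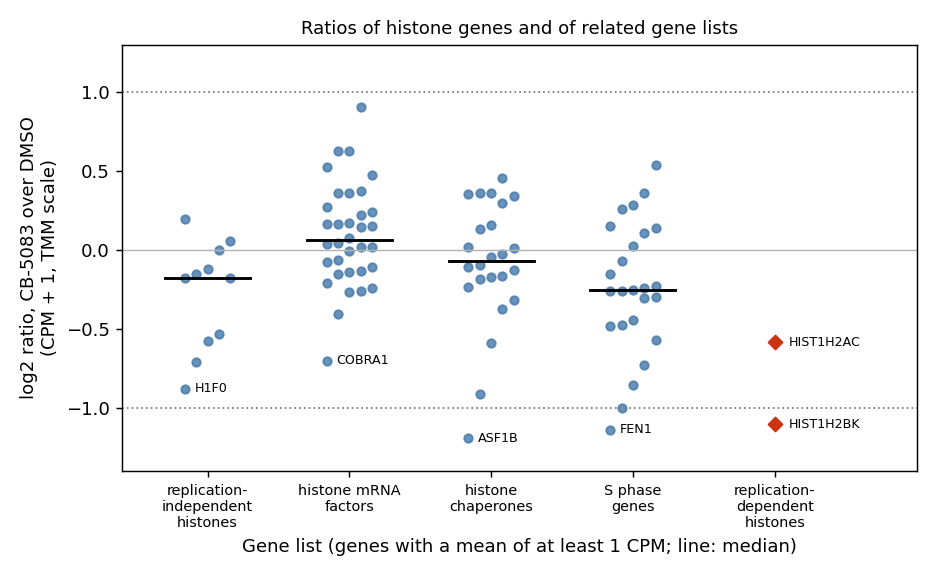
Log2 ratios of CB-5083 over DMSO (CPM + 1, TMM scale) for genes with a mean of at least 1 CPM in 4 related lists and for the 2 replication-dependent histone genes at that level (diamonds). Points are genes, black lines are medians and dotted lines mark 2-fold. The medians are -0.18, 0.062, -0.070 and -0.25 from left to right, and HIST1H2BK lies at -1.10 beside FEN1 and ASF1B.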

How the data were processed

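Poly(A)-selected RNA of 2 libraries, DMSO and CB-5083, was analysed. Each deposited value is a gene's signal, an RSEM estimate that the authors scaled per library. Its 75th percentile in the files lies near 1000 (999.73 and 999.89). RSEM 1.2.0 and hg19 are named in the submitters' processing notes. The sources used here name no aligner. The authors' deposited log2 ratio has no pseudocount. The design had assumed unscaled counts or CPM. Estimated counts were therefore recovered by dividing by the smallest step (1.079 and 1.1752).

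CPM used TMM factors of 1.1258 and 0.8883 (trims of 30% and 5%). 1 row without values was left out. File starts, counted from 0, were raised by 1. Stem-loops and 50-base words came from GENCODE 29 transcripts, promoters from RefSeq. Members, gene lists and rules were chosen with earlier results of these data known. Named were members with 5 CPM, extremes of each class and list, and 12 fixed genes, H3F3A being not analysed here. Other members, CENPA, H2AFJ, H2AFY2, LSM10, LSM11, POU2F1, ASF1A, CHAF1A, NASP, TONSL and E2F2 were named after their values were seen. Scripts were tested on simulated data. Python 3.11.15, numpy 2.4.6, pandas 2.3.3 and scipy 1.17.1 were used.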

Additional observations from a re-analysis of the deposited data

How the results depend on the processing

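Of 246 values of the main results recomputed under alternatives, 198 stayed within the counting interval or within 1.5 times the count, and 48 moved. The call of HIST1H2BK as lower was lost (0 members) with a filter of 10 CPM, a 3-fold threshold, or only members with under 50% of their words shared, which leaves that gene out. With library totals, the summed fold was 0.417 for all members, 0.366 for H2B and 0.378 for HIST1. It was 0.369 for genes with no stem-loop found in the annotated transcripts and 0.407 for long spans. Without the member with the highest sum it was 0.730 for all members, 0.877 for H2B, 0.145 for H3 and 0.643 for HIST1. It was then 1.21 for genes with no stem-loop found, 0.724 for long spans and 0.105 for short spans. With that member, the main values of the last sets were 0.467 (0.37 to 0.58), 0.515 (0.43 to 0.62) and 0.773 (0.36 to 1.59). The 0.145 for H3 was HIST1H3H alone, at 8 and 1 counts. Short spans held 21 and 14 counts, of which the removed HIST1H1C had 10 and 13. Among members with under 50% of their words shared the summed fold was 0.728 for all, 0.877 for H2B, 0.653 for HIST1 and 1.32 for genes with no stem-loop found. The members' median was -1.23 by the authors' deposited log2 ratio.

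All genes higher and lower numbered 371 and 994 with library totals, 1660 and 1195 at 1.5-fold, 245 and 106 at 3-fold, and 722 were lower by the authors' deposited ratio. With library totals 2 replication-independent histones, 1 mRNA factor, 2 chaperones and 4 S phase genes were lower, and the medians were -0.26 for mRNA factors, -0.40 for chaperones and -0.59 for S phase genes. At 1.5-fold, 2, 1, 3 and 4 of these lists were lower and 2 mRNA factors higher, and at 3-fold 0 chaperones and 0 S phase genes were lower. Chaperones and S phase genes each had 2 lower with pseudocounts of 0.5 or 0.1 CPM and by the authors' deposited ratio, and S phase genes 2 with upper quartile scaling. No replicate could be left out. No paired analysis was possible because each group is 1 library. The interval from counting error excluded 1 for 2 of the 11 members counted in both libraries, HIST1H2BK and HIST1H2AC.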
